A study of Homo sapiens with 8 samples.

Results

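The expression of 10 growth factor receptor tyrosine kinases of epithelial cells was examined in HepG2 cells that received GRHL2 or a control plasmid. The receptors were taken by symbol from the deposited expression table, in which all 10 of the 10 names were found among 17561 genes: EGFR, ERBB2 and ERBB3 of the ERBB family, MET, the fibroblast growth factor receptors FGFR1, FGFR2, FGFR3 and FGFR4, and the insulin receptor family members IGF1R and INSR. HepG2 is a human hepatocarcinoma cell line. In the pGRHL2 group, cells were transfected with a construct that expresses flag-tagged GRHL2, a transcription factor of epithelial lineages, from an EEF1A1 promoter together with enhanced green fluorescent protein, while the pcDNA3 group received the vector of that name. The plasmids therefore differed in more than the GRHL2 insert, and the libraries described here come from a single cell line. RNA was collected 48 h later from 4 libraries per group (8 in all), and paired-end mRNA sequencing was performed. All cells of both groups were grown on gelatin in William's E medium with 10% fetal bovine serum, 20 mU/ml bovine insulin and, per the labels, 50 nM dexamethasone, so that serum growth factors and insulin were present in every sample.

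Receptor tyrosine kinases cross the plasma membrane and carry a kinase on their cytoplasmic side. Binding of a ligand brings receptor chains together, the chains phosphorylate each other, and docking proteins on the phosphorylated tails start the RAS to MAPK and PI3K to AKT cascades that govern growth, survival, motility and metabolism. In hepatocytes, MET (the receptor of hepatocyte growth factor) and EGFR are the main mitogenic receptors, INSR controls glucose and lipid metabolism, and FGFR4 with its co-receptor KLB restrains bile acid synthesis in response to the intestinal hormone FGF19. ERBB3 has been named as a target of GRHL2.

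Values were on a log2 scale with transcript length divided out, and ranged from -3.76 to 17.27, with library medians of 6.71 to 6.73. Numbers of reads were not analysed here, and the depth behind each value is unknown. Averaging a pGRHL2 library with the pcDNA3 library of its number gave, in every one of the 17561 genes, the same result for the numbers 1 to 4, and the libraries were therefore compared as 4 pairs. As the check of the labels, GRHL2 stood at 16.22, 16.49, 16.87 and 16.33 in pGRHL2 libraries 1 to 4 and at 7.25, 6.98, 6.61 and 7.15 in pcDNA3 libraries 1 to 4. All 6 hepatocyte markers looked for were present, at levels of 7.11 to 17.11, and none of them was called. Of markers of other cell types, 2 of 5 fibroblast, 2 of 5 endothelial and 2 of 5 leukocyte genes were in the table, at levels of 1.91 to 13.27 (the highest being LYZ, with 34.7% of its exon bases shared with another gene), and none was called.

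Whether forced GRHL2 expression altered the receptors' transcripts was asked first. At an adjusted p under 0.05 (limma with pair number as a block, Benjamini-Hochberg over all genes), 0 of the 10 receptors were higher and 0 were lower in pGRHL2 cells, against 1.69% of all 17561 genes called higher and 0.501% called lower. Of the 10 log2 fold changes (log2 FC, pGRHL2/pcDNA3), 6 were positive and 4 negative, with a median of 0.04 beside 0.0017 over all genes. At an unadjusted p under 0.05, 1 of the 10 receptors passed (EGFR), where 16.0% of all genes did. That receptor was also the single member whose pGRHL2 and pcDNA3 values did not overlap, a property of 24.0% of all genes. Because the pair means are equal, groups lie apart exactly when all 4 pair differences share a sign. Here and below, groups that do not overlap are therefore no evidence beyond that shared sign. For 9 of the 10 receptors the SD of the 4 pair differences exceeded the size of the log2 FC. The 95% intervals of the receptors other than EGFR reached no lower than -0.26 and no higher than 0.36. This bounds the average differences only under the limma errors, and does not show that the levels were equal. Those errors are moderated towards genes of like level, whereas the receptors varied more between pairs. Their median SD over pairs was 0.20, beside 0.12 for all genes at a level of 8 to 12. The intervals may thus be too narrow for receptors with a wide spread, EGFR included. The receptors did not keep a sign across libraries: 7 of the 10 changed it when a single replicate number was left out, while EGFR, FGFR3 and IGF1R kept theirs. In these bulk samples, fewer cells expressing a receptor and less of its RNA per cell cannot be told apart.

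**Figure D1:**
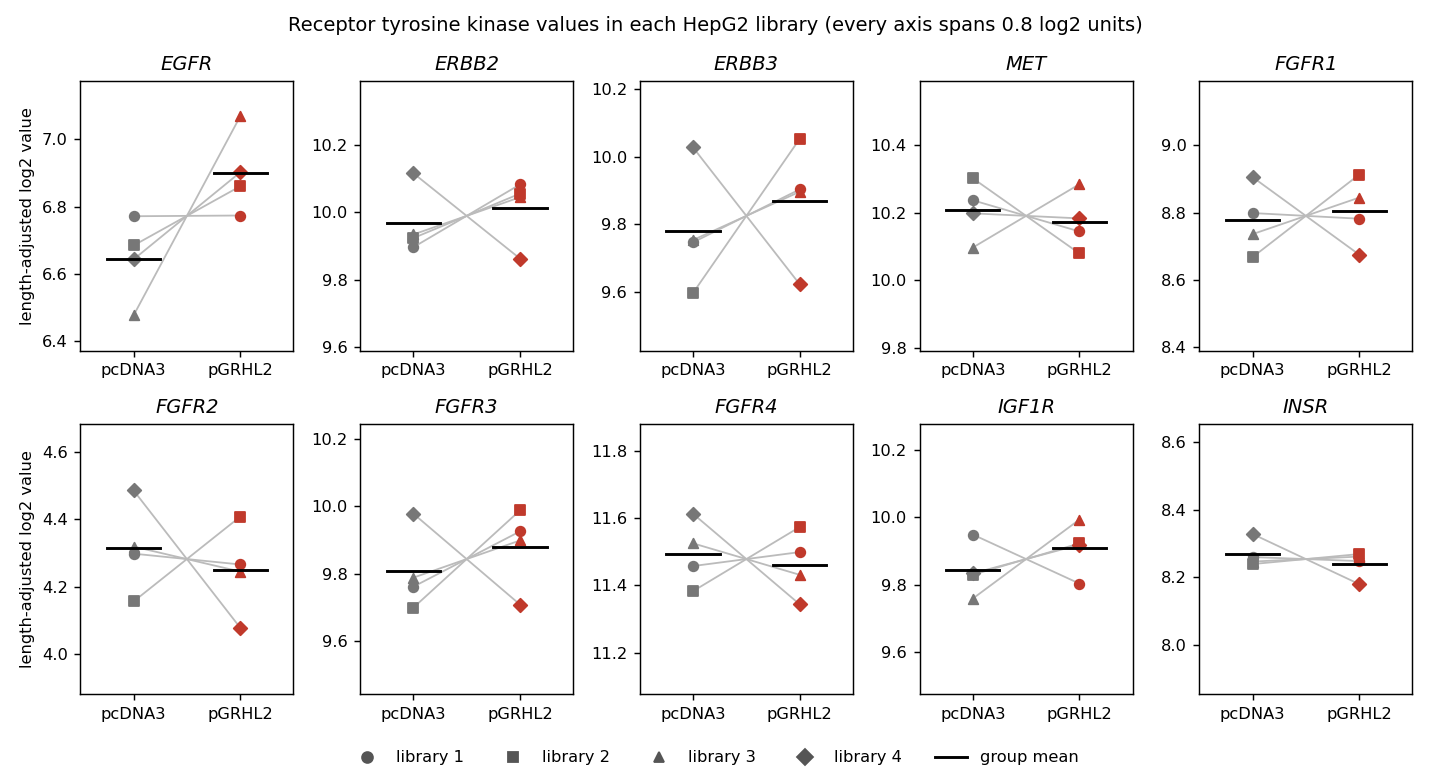
Length-adjusted log2 value (vertical axis, each panel spanning 0.8 log2 units) of each receptor in the 4 pcDNA3 libraries (grey) and the 4 pGRHL2 libraries (red), where marker shapes give the library number, lines join same-numbered libraries and bars are group means. The lines cross at 1 point in every panel because the mean of a pair is the same for all 4 numbers, and EGFR is the panel in which the groups do not overlap.

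**Figure D2:**
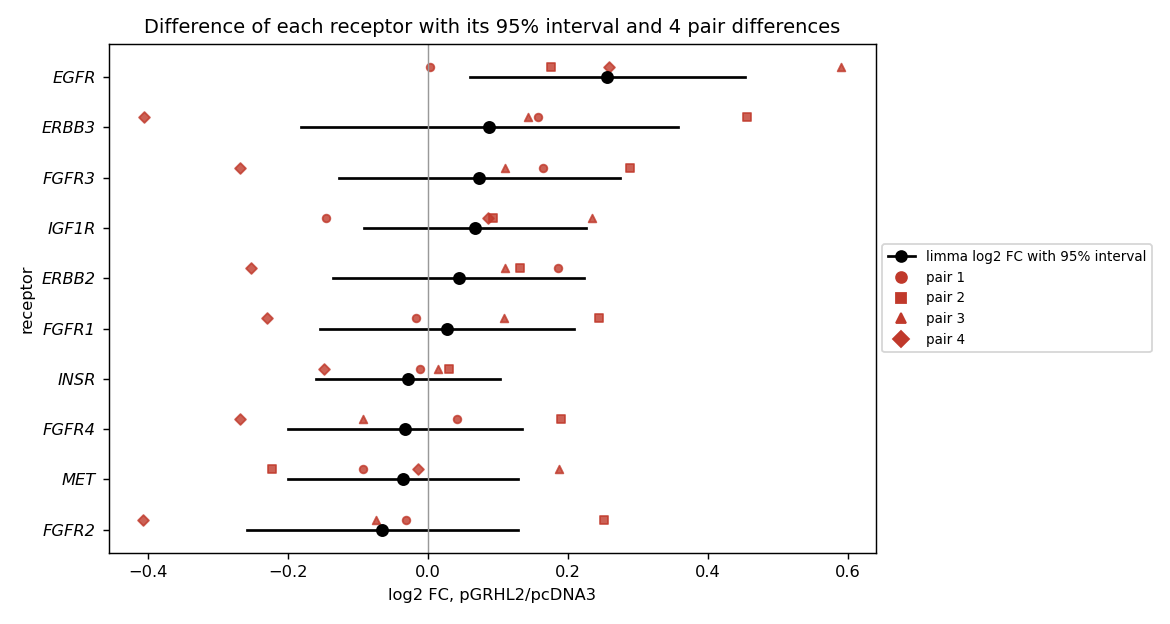
Log2 FC (horizontal axis) of each receptor, with the limma estimate and its 95% interval as a black point and line and the 4 pair differences as red markers. The interval of EGFR, from 0.06 to 0.45, is the only 1 of 10 that does not include 0. All intervals use limma errors moderated towards genes of like level.

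EGFR (chromosome 7, 55019017 to 55211628, plus strand of hg38) encodes the receptor of EGF, TGF alpha and amphiregulin. On the log2 scale it stood at 6.77, 6.86, 7.07 and 6.90 in pGRHL2 libraries 1 to 4 and at 6.77, 6.68, 6.48 and 6.64 in pcDNA3 libraries 1 to 4. Every pGRHL2 value lay above every pcDNA3 value, which with equal pair means only restates that the 4 pair differences were positive. The values of pair 1 were apart by only 0.0022. The log2 FC of EGFR was 0.26 ± 0.25 (SD over 4 pairs; 1.19-fold), with a limma p of 0.0163 before and 0.185 after adjustment. In the exact sign-flip test (two-sided), 2 of the 16 sign assignments were as far from 0, the smallest share that 4 pairs allow, and this test cannot reach 0.05. For the other 9 receptors the exact p was between 0.5 and 0.875. The pair differences of EGFR were 0.0022, 0.18, 0.59 and 0.26, beside 8.97, 9.51, 10.26 and 9.18 for GRHL2 in the same pairs. A relation between them over the 4 pairs was not tested, and the other 9 receptors were not set beside GRHL2. Without replicate 3, the log2 FC of EGFR was 0.15. The fit without the replicate block gave EGFR an adjusted p of 0.0422 and thereby called it higher, in a setting that called 10.4% of all genes higher; across the 11 alternatives that kept the block, its adjusted p ranged from 0.147 to 0.367.

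Promoters were searched because GRHL2 binds DNA at a Grainyhead consensus. RefSeq (GRCh38.p14) supplied 300-base promoters, with 250 bases before and 50 after a gene's start, for 8 of the 10 receptors; ERBB3 and FGFR1 were not matched. None of the 14 entries of these 8 receptors held AACCGGTT or AACCNGTT on either strand (the former being a case of the latter), compared with 0.134% and 1.73% of all 35116 promoters in the table. The absence says only that these letters are not in the window. The 250 bases before the EGFR start are shown because EGFR was the receptor whose groups were apart; they lie at chr7:55018767-55019016 on the plus strand, with the letters GGGCGG or their complement CCGCCC, known as the GC box, in capitals.
EGFR: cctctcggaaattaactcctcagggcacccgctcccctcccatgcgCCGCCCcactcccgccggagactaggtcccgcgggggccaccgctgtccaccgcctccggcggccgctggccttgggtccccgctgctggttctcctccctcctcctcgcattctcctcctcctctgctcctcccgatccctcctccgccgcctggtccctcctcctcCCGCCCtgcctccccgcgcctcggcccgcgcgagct
Of the most upstream entry of each receptor, which need not be its main start site, 7 of 8 held GGGCGG on either strand, ERBB2 being the exception. TATAAA was held by 0 of 8. Among all promoters, where every entry of a gene counts, the shares were 44.95% for GGGCGG and 11.53% for TATAAA. Among promoters of genes in the expression table they were 62.42% and 7.21%. The 8 most upstream receptor entries had a G and C content of 60.7% to 86.3% and 24 to 55 CpG dinucleotides, against medians of 58.7% and 14 over all promoters. The other 6 entries, at further start sites of EGFR, FGFR2 and FGFR4, had 42.0% to 57.3% and 1 to 8, with GGGCGG in 1 of FGFR2 and TATAAA in that of EGFR.

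ERBB2 (chromosome 17, 39687914 to 39730426, plus strand) encodes the ERBB chain that has no known ligand of its own and serves as partner of the others. Its values were 10.08, 10.06, 10.04 and 9.86 in pGRHL2 libraries 1 to 4 and 9.90, 9.92, 9.93 and 10.12 in pcDNA3 libraries 1 to 4. Pairs 1 to 3 were higher in pGRHL2 cells, pair 4 was lower, and the groups overlapped. ERBB2 thus had a log2 FC of 0.04 ± 0.20 (SD over 4 pairs), a 95% interval of -0.14 to 0.22 and an adjusted p (limma) of 0.861, and 6.93% of its exon bases were shared with another gene, the largest share among the 10 receptors.

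ERBB3 (chromosome 12, 56076799 to 56103505, plus strand) encodes a receptor of neuregulins with a weak kinase that signals by partnering ERBB2. In pGRHL2 libraries 1 to 4 its values were 9.90, 10.05, 9.90 and 9.62, and in pcDNA3 libraries 1 to 4 they were 9.75, 9.60, 9.75 and 10.03. Pair 2 held the highest pGRHL2 and the lowest pcDNA3 value, pair 4 held the reverse, and the groups overlapped. With pair differences of 0.16, 0.46, 0.14 and -0.41, ERBB3 had the largest spread of the 10 receptors and a log2 FC of 0.09 ± 0.36 (SD over 4 pairs), a 95% interval of -0.18 to 0.36 and an adjusted p (limma) of 0.793. Leaving out replicate 4 gave 0.25 and leaving out replicate 2 gave -0.04, neither of which was called. ERBB4, the remaining family member, stood at a mean level of -0.45, on a scale where 3.71% of all values were below 0, and its log2 FC was 0.07 ± 0.04 (adjusted p = 0.0619, limma).

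MET (chromosome 7, 116672196 to 116798377, plus strand) had values of 10.14, 10.08, 10.29 and 10.18 in pGRHL2 libraries 1 to 4 and of 10.24, 10.30, 10.10 and 10.20 in pcDNA3 libraries 1 to 4. Its pair differences, -0.09, -0.22, 0.19 and -0.01, were lowest in pair 2 and highest in pair 3, and the groups overlapped. The log2 FC was -0.04 ± 0.17 (SD over 4 pairs), with a 95% interval of -0.20 to 0.13 and an adjusted p (limma) of 0.879.

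FGFR4 (chromosome 5, 177086905 to 177098144, plus strand) is the hepatocyte receptor of FGF19. It measured 11.50, 11.57, 11.43 and 11.34 in pGRHL2 libraries 1 to 4 and 11.46, 11.38, 11.52 and 11.61 in pcDNA3 libraries 1 to 4, with overlapping groups. Pairs 1 and 2 were higher and pairs 3 and 4 lower in pGRHL2 cells, which gave a log2 FC of -0.03 ± 0.20 (SD over 4 pairs), a 95% interval of -0.20 to 0.13 and an adjusted p (limma) of 0.895. The sequence before its start is shown as that of the receptor with the highest level; it lies at chr5:177086665-177086914 on the plus strand of GRCh38.p14, with its 7 GC boxes in capitals, where the EGFR stretch has 2.
FGFR4: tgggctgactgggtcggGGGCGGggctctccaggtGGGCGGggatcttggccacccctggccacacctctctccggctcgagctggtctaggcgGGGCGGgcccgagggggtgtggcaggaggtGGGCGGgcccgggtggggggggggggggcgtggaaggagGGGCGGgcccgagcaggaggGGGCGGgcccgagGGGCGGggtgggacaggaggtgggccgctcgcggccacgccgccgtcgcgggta
The remaining FGF receptors bind overlapping sets of FGF ligands and carry splice forms typical of epithelial or mesenchymal cells, which gene-level values do not separate.

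FGFR3 (chromosome 4, 1793293 to 1808872, plus strand) was at 9.93, 9.99, 9.90 and 9.71 in pGRHL2 libraries 1 to 4 and at 9.76, 9.70, 9.79 and 9.98 in pcDNA3 libraries 1 to 4. It was higher in 3 of 4 pairs, with pair 4 lower, and its log2 FC was 0.07 ± 0.24 (SD over 4 pairs; adjusted p = 0.760, limma). FGFR1 (chromosome 8, 38400215 to 38468834, minus strand) was at 8.78, 8.91, 8.84 and 8.68 in pGRHL2 libraries 1 to 4 and at 8.80, 8.67, 8.74 and 8.91 in pcDNA3 libraries 1 to 4. Only pairs 2 and 3 were higher for FGFR1, whose log2 FC was 0.03 ± 0.20 (SD over 4 pairs), with the largest adjusted p (limma) of the 10 receptors, 0.922. FGFR2 (chromosome 10, 121478332 to 121598458, minus strand), a receptor whose epithelial splice form answers to FGF7 and FGF10, was at 4.27, 4.41, 4.24 and 4.08 in pGRHL2 libraries 1 to 4 and at 4.30, 4.16, 4.32 and 4.49 in pcDNA3 libraries 1 to 4. Higher in pair 2 alone, FGFR2 had a log2 FC of -0.07 ± 0.27 (SD over 4 pairs), a 95% interval of -0.26 to 0.13 and an adjusted p (limma) of 0.782. The groups overlapped for each of these 3 receptors.

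IGF1R (chromosome 15, 98648539 to 98964530, plus strand) encodes the receptor through which insulin-like growth factors act. Its values were 9.80, 9.92, 9.99 and 9.92 in pGRHL2 libraries 1 to 4 and 9.95, 9.83, 9.76 and 9.83 in pcDNA3 libraries 1 to 4, lower in pair 1 and higher in the other 3 pairs. The groups overlapped, and the log2 FC of IGF1R was 0.07 ± 0.16 (SD over 4 pairs; adjusted p = 0.716, limma). INSR (chromosome 19, 7112255 to 7294414, minus strand) had the narrowest spread of the 10 receptors, with 8.25, 8.27, 8.26 and 8.18 in pGRHL2 libraries 1 to 4 and 8.26, 8.24, 8.25 and 8.33 in pcDNA3 libraries 1 to 4. Its groups overlapped as well, with a log2 FC of -0.03 ± 0.08 (SD over 4 pairs), a 95% interval of -0.16 to 0.10 and an adjusted p (limma) of 0.877. Both insulin receptor family members were measured in cells kept in added insulin.

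The receptors differed far more from each other than between the plasmids. On the length-adjusted log2 scale, FGFR4 had the highest mean level over the 8 libraries (11.48, rank 582 of 17561 genes), followed by MET (10.19), ERBB2 (9.99), IGF1R (9.88), FGFR3 (9.84), ERBB3 (9.82), FGFR1 (8.79), INSR (8.25), EGFR (6.77) and FGFR2 (4.28). FGFR4 lay above MET in every library, with a gap of 1.29 between their means. From MET to ERBB3, each neighbour in the order overlapped the next over the 8 libraries, so that these steps were not separated, although the lowest MET value (10.08) was above the highest of IGF1R (9.99), FGFR3 (9.99) and ERBB3 (10.05). From ERBB3 downwards, neighbours did not overlap: FGFR1 stood 1.03 below ERBB3, INSR 0.54 below FGFR1, EGFR 1.48 below INSR and FGFR2 2.49 below EGFR. EGFR was thus close to the median gene (level 6.72, EGFR at percentile 50.4), while FGFR2 was at percentile 33.7. Ranks also depend on the transcript length by which each value was divided, those of close neighbours and the top step alike. In GENCODE release 44 the mean transcript length was 1213 bases for FGFR4 and 3664 bases for MET. The order without this division was not tested.

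The pair differences of most receptors fell in a similar order over the 4 pairs. In pair 4, 8 of the 10 receptors were lower in pGRHL2 cells and 7 had their lowest difference, whereas 28.8% of all genes had theirs there. In pair 2, 9 of 10 were higher and 6 had their highest difference, beside 25.8% of all genes. The median difference of the 10 receptors was -0.0049, 0.18, 0.11 and -0.24 in pairs 1 to 4, whereas the median of all genes was 0.0016, 0.0059, 0.0013 and 0.00078. EGFR, MET and IGF1R stood apart from this order, since each had its highest difference in pair 3. ERBB2 departed in part, with its highest difference in pair 1 (0.19) and its lowest in pair 4 (-0.25). When trends with GC content, length and level were removed from each pair, as planned for the fits, the receptor medians by pair (a summary added after seeing the data) were 0.00051, 0.17, 0.10 and -0.19, and 7 receptors still had their lowest difference in pair 4. Because the values of a pair mirror each other around a fixed mean, which of its libraries moved cannot be told apart. The receptors also varied more than genes of like level: their median SD over pairs was 0.20, while that of the 6139 genes with a mean level of 8 to 12, the band that holds 8 of the receptors, was 0.12. Their median absolute log2 FC was 0.055 over all 10 receptors, including EGFR and FGFR2 from outside that band, beside 0.060 for the genes of the band.

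**Figure D3:**
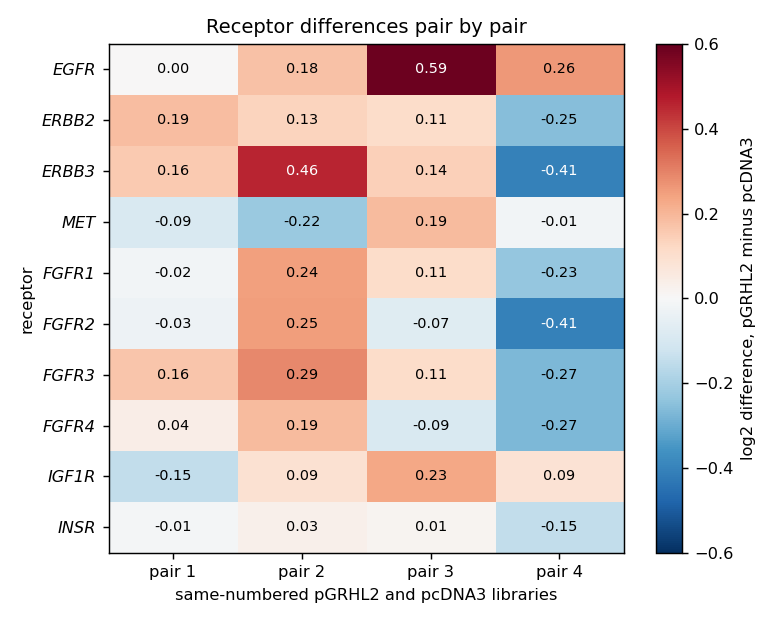
Difference between the same-numbered pGRHL2 and pcDNA3 libraries (log2, colour scale and printed value) for the 10 receptors (rows) in pairs 1 to 4 (columns). Pair 4 is below 0 for 8 receptors and pair 2 above 0 for 9, while EGFR is the row with 4 positive values.

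The receptors' ligands, partners and regulators were described through 9 lists, of whose 163 genes 125 were in the table. Of these 125 genes, 3 were called higher (2.4%) and 1 was called lower (0.8%), beside 1.69% and 0.501% of all genes. The genes called were PTPRJ and SOCS5 among the inhibitors and EPHB2 and PDGFRA among other receptor tyrosine kinases. The sign of a gene's log2 FC varied with its level: 61.7% of the 6703 genes under a mean level of 5 were positive, and 59.9% of the 6139 genes at 8 to 12 were negative, so that levels (means of the 8 length-adjusted log2 values) are given beside the differences, which carry the SD of the 4 pair differences after the ± sign.

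**Figure D4:**
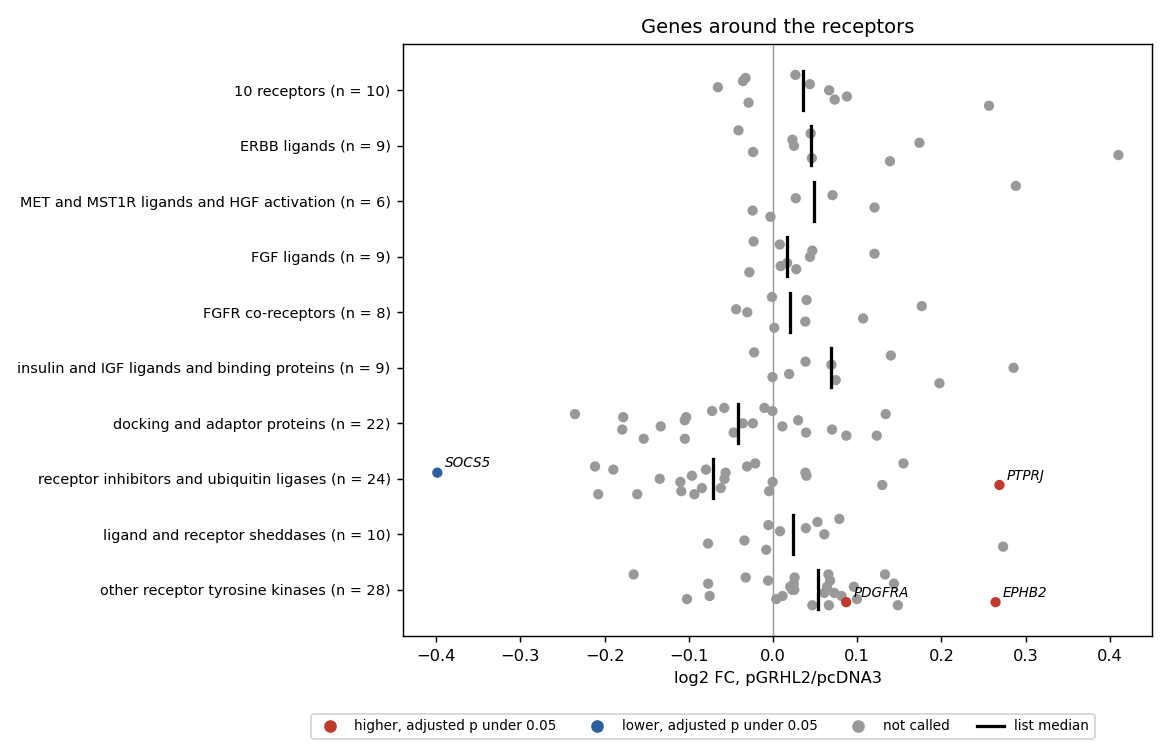
Log2 FC (horizontal axis) of each gene in the table for the 10 receptors and the 9 lists around them, with list medians as bars and calls at an adjusted p under 0.05 in red (higher) or blue (lower). List medians lie between -0.07 and 0.07, and the 4 named genes are the calls.

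Among ERBB ligands, 9 of 11 were in the table and 0 were called. Their median log2 FC was 0.04, with 7 positive and 2 negative. TGFA, which encodes an EGFR ligand, had the highest level of the list (10.02) and a log2 FC of 0.05 ± 0.12 (adjusted p = 0.796, limma). NRG1, which encodes a ligand of ERBB3, had the largest positive log2 FC of the ligands, with 5.74, 5.56, 5.89 and 5.87 in pGRHL2 libraries 1 to 4 and 5.38, 5.56, 5.23 and 5.25 in pcDNA3 libraries 1 to 4. It was higher in 3 of 4 pairs and nearly equal in pair 2, at 0.41 ± 0.31 (SD over 4 pairs), and did not pass the test (adjusted p = 0.0749, limma). EREG, the gene of epiregulin, had the largest negative value, -0.04 ± 0.28 (adjusted p = 0.897, limma). EGF and NRG3 were not analysed here.

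Of the genes of MET and MST1R ligands and of HGF activation, 6 of 7 were in the table and 0 were called, with a median log2 FC of 0.05. SPINT1, the gene of a membrane inhibitor of the proteases that activate HGF, was at 8.63, 8.45, 8.47 and 8.55 in pGRHL2 libraries 1 to 4 and at 8.14, 8.31, 8.29 and 8.21 in pcDNA3 libraries 1 to 4. Its groups did not overlap and its log2 FC was 0.29 ± 0.16 (SD over 4 pairs), but it was not called (adjusted p = 0.0802, limma). MST1, the ligand gene with the highest level (9.27), had 0.12 ± 0.17 (adjusted p = 0.489, limma), and the protease gene ST14 had -0.02 ± 0.04 (adjusted p = 0.793, limma). HGF itself was not analysed here.

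FGF ligands were low where present: 9 of 18 were in the table, at levels of 0.55 to 3.54, and 0 were called (median log2 FC 0.02). The highest was FGF17 at 3.54, with a log2 FC of 0.05 ± 0.04 (adjusted p = 0.481, limma). FGF2 had 0.12 ± 0.07 and an adjusted p (limma) of 0.0556, with 11.8% of its exon bases shared with another gene, and FGF1 had -0.03 ± 0.04 (adjusted p = 0.528, limma). All 8 FGF co-receptors and heparan sulfate proteoglycans were in the table and 0 were called, with a median of 0.02. KLB, the partner of FGFR4 for FGF19, was at a mean level of 6.82 and had pair differences of -0.14, 0.46, -0.06 and -0.44, highest in pair 2 and lowest in pair 4 as for FGFR4, with a log2 FC of -0.04 ± 0.38 (SD over 4 pairs; adjusted p = 0.915, limma). The proteoglycan genes SDC2 (level 11.22) and GPC1 (level 8.50) had 0.04 ± 0.18 and 0.18 ± 0.10, with adjusted p (limma) of 0.858 and 0.194.

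In the insulin and IGF list, 9 of 12 genes were in the table and 0 were called (median log2 FC 0.07, 7 positive and 2 negative). IGFBP1, the gene of an insulin-repressed binding protein of hepatocytes, had the highest level (11.43). It was at 11.49, 11.32, 11.09 and 11.76 in pGRHL2 libraries 1 to 4 and at 11.36, 11.53, 11.76 and 11.09 in pcDNA3 libraries 1 to 4, so that its pairs ran from -0.68 to 0.66 around a log2 FC of -0.02 ± 0.56 (SD over 4 pairs; adjusted p = 0.974, limma). IGFBP6 had the largest positive value, 0.29 ± 0.23, higher in 4 of 4 pairs and not called (adjusted p = 0.139, limma).

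Of docking and adaptor genes, 22 of 24 were in the table and 0 were called. Their median log2 FC was -0.04, with 15 negative and 7 positive, at a median level of 8.06. Over all genes, the median was -0.02 with 59.9% negative at a level of 8 to 12. At a level of 5 to 8 it was 0.0036 with 48.2% negative. The groups did not overlap for 8 of the 22 (24.0% of all genes), of which 7 were lower in every pair. SOS1, which encodes a RAS exchange factor, was at 9.67, 9.69, 9.74 and 9.71 in pGRHL2 libraries 1 to 4 and at 9.97, 9.95, 9.90 and 9.94 in pcDNA3 libraries 1 to 4. With a log2 FC of -0.24 ± 0.06 (SD over 4 pairs) it had the largest negative value of the list and missed the threshold (adjusted p = 0.0695, limma). PLCG1 (level 11.03) and NCK2 (level 8.10) had 0.04 ± 0.18 and 0.13 ± 0.18, with adjusted p (limma) of 0.863 and 0.442.

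Receptor inhibitors and ubiquitin ligases showed 19 negative and 5 positive values among 24 genes, with a median log2 FC of -0.07, 1 gene called lower and 1 called higher. Negative values made up 48.5% of all genes, 48.2% of those at a level of 5 to 8 and 59.9% at 8 to 12. Of all genes, 1.69% were called higher and 0.501% lower. The groups did not overlap for 7 of the 24, beside 24.0% of all genes. SOCS5, the gene of a suppressor of cytokine signalling that also promotes EGFR degradation, fell from 8.83, 8.85, 8.80 and 8.72 in pcDNA3 libraries 1 to 4 to 8.37, 8.35, 8.41 and 8.48 in pGRHL2 libraries 1 to 4. The groups were apart, and the log2 FC was -0.40 ± 0.11 (SD over 4 pairs; 0.759-fold; adjusted p = 0.0176, limma). PTPRJ, the gene of a receptor-type phosphatase that acts on EGFR and MET, rose from 5.60, 5.58, 5.51 and 5.65 in pcDNA3 libraries 1 to 4 to 5.84, 5.86, 5.92 and 5.79 in pGRHL2 libraries 1 to 4, with a log2 FC of 0.27 ± 0.11 (SD over 4 pairs; adjusted p = 0.0354, limma). Each of these calls was lost when replicate 1, 2 or 3 was left out, with an adjusted p by limma of 0.0755 to 0.127 for SOCS5 and of 0.118 to 0.151 for PTPRJ. Without the eBayes trend, neither SOCS5 (adjusted p = 0.0813, limma) nor PTPRJ (adjusted p = 0.111, limma) was called. ERRFI1, the gene of an inhibitor of the EGFR kinase, had the highest level of the list (13.14) and a log2 FC of -0.02 ± 0.12 (adjusted p = 0.90, limma).

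Of the genes of sheddases and their partners, which release ERBB ligands from the membrane, 10 of 11 were in the table, 0 were called and the median log2 FC was 0.02. ADAM10 (level 10.72) and ADAM9 (level 10.35) had -0.01 ± 0.10 and -0.08 ± 0.18, with adjusted p (limma) of 0.972 and 0.679. RHBDF1, the gene of an inactive rhomboid protein that assists the sheddase ADAM17, was higher in 4 of 4 pairs at 0.27 ± 0.18, without passing the test (adjusted p = 0.107, limma).

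Against the rest of their superfamily, the 10 receptors were mostly among those with high levels. Of 58 receptor tyrosine kinases looked for, 38 were in the table, and a mean level of at least 8 was reached by 8 of the 10 receptors and by 8 of the 28 others. Among the 28 others, 2 were called higher and 0 lower, with a median log2 FC of 0.05 (22 positive, 6 negative) at a median level of 3.99. Over all genes, 1.69% were called higher and 0.501% lower. Both calls lay under a mean level of 5, where 3.34% of all genes were called higher and 61.7% were positive. EPHB2, which encodes an ephrin receptor, rose from 2.55, 2.61, 2.66 and 2.60 in pcDNA3 libraries 1 to 4 to 2.93, 2.86, 2.82 and 2.87 in pGRHL2 libraries 1 to 4. Its log2 FC was 0.26 ± 0.09 (SD over 4 pairs, adjusted p = 0.00796, limma). The spreads of EPHB2 and EGFR are not directly comparable, since EPHB2 stood at a much lower level. The rlog transformation shrinks differences of weakly expressed genes, and its part in the EPHB2 spread was not tested. Without the eBayes trend EPHB2 was not called (adjusted p = 0.0998, limma). PDGFRA, which encodes a receptor of mesenchymal cells, was higher by 0.09 ± 0.02 at a level of 1.65 (adjusted p = 0.0393, limma), a call lost without any single replicate (adjusted p by limma of 0.102 to 0.176), and 16.1% of its exon bases were shared with another gene. Of the fibroblast markers, COL1A1 was at a level of 5.82 with 0.20 ± 0.10 (adjusted p = 0.0838, limma). PDGFRB was at 5.08 with a log2 FC of -0.0058. The part of these markers in the PDGFRA value was not tested. EPHA2, with the highest level of the 38 (12.02), had a log2 FC of -0.10 ± 0.17 (adjusted p = 0.506, limma), and LMTK2 had the largest negative value, -0.17 ± 0.09 (adjusted p = 0.215, limma).

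**Figure D5:**
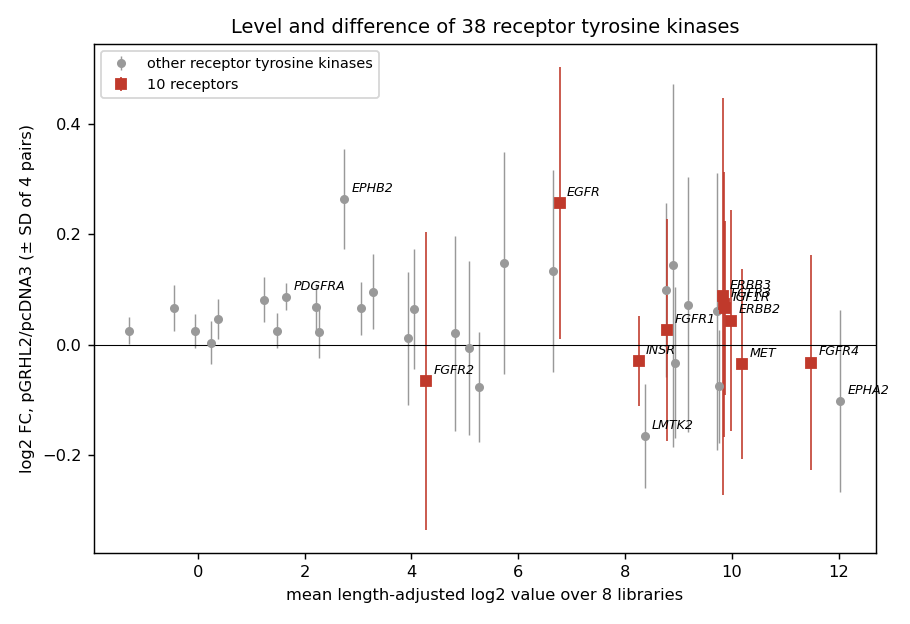
Mean length-adjusted log2 value over the 8 libraries (horizontal axis) and log2 FC (vertical axis, ± SD of 4 pairs) for 38 receptor tyrosine kinases, with the 10 receptors as red squares and the 28 others as grey circles. EPHB2 and EGFR both lie at 0.26, at levels of 2.74 and 6.77, and the receptors at levels of 8 to 12 lie within 0.09 of 0.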

How the data were processed

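RNA-seq of mRNA from 8 HepG2 libraries was used, grouped by the plasmid given in the labels. According to the methods and the submitters' processing notes, the authors mapped reads to hg38 (HISAT2 2.2.1), counted exon reads without strand in union mode (HTSeq 0.9.1), removed genes with few reads and applied the rlog transformation (DESeq2 1.40.2), then divided by mean transcript length. The deposited values are on a log2 scale, although the table is named for FPKM, and rlog shrinks differences of weakly expressed genes. All 10 receptors were in this table, 9 of them with a mean of at least 5. It had 0 columns of other samples, and 1 stray character in it was dropped.

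The mean of each same-numbered pair was equal over the 4 numbers (largest spread 1.53e-13), a step the methods do not describe. This makes a correlation check of the pairing void, and the pairing comes from the numbers in the labels and from this structure. Differences were fitted on all 17561 genes with limma 3.58.1 in R 4.3.3 (lmFit, eBayes with trend), with the replicate number as a block (3 residual degrees of freedom), Benjamini-Hochberg adjustment and a threshold of 0.05, and the fit was tested on simulated data. The study describes its HepG2 replicates as independent biological ones. With equal pair means, only the 4 pair differences vary between the replicate numbers. The limma p-values rest on the spread of these differences, moderated towards genes of like level, and not on a gene's own spread alone. Errors are SDs of 4 pair differences, and single genes were also tested by exact two-sided sign-flip tests over 16 sign assignments (at least 2 of which reach the observed size).

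The receptors and lists were chosen with earlier results of these data known. The genes named are the 10 receptors, GRHL2 and, from each list, every gene called, the gene with the highest level and those with the largest positive and negative log2 FC. ERBB4, COL1A1, PDGFRB and LYZ were named after their values were seen, and the GGGCGG and TATAAA searches were likewise added. Gene positions, GC content, length and shared exon bases were taken from GENCODE release 44, in which 99.86% of symbols were matched. Promoter sequences were from RefSeq (GRCh38.p14). Protein sequences were not used here.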

Additional observations from a re-analysis of the deposited data

How the results depend on the processing

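The alternatives were a fit without the replicate block, robust eBayes, arrayWeights, eBayes without trend, 2 other scalings, restriction to genes with a mean of at least 5, GC, length and level trends removed, an adjusted p under 0.01, and leaving out each replicate number with both its libraries. No receptor was called lower in any of them, and no receptor was called higher except without the replicate block, where EGFR was the 1 receptor called. Of the 40 receptor values with a replicate left out, 32 kept sign and side of the threshold and 8 changed sign. Of the 79 receptor values under other settings, 77 kept both, EGFR passed the threshold without the block, and FGFR4 changed sign to 0.0033 with arrayWeights. With each replicate left out, log2 FC ran from -0.0036 to 0.143 for ERBB2, -0.0352 to 0.252 for ERBB3, -0.110 to 0.0268 for MET, -0.0461 to 0.112 for FGFR1, -0.171 to 0.0484 for FGFR2, -0.107 to 0.0460 for FGFR4 and -0.0486 to 0.0108 for INSR. Pathway genes called higher, 3 in the main setting, numbered 22 without the replicate block, 5 with robust eBayes, 8 with arrayWeights, 7 with library totals (GRHL2 set aside) made equal, 1 at a mean of at least 5, 0 without the trend, 1 at an adjusted p under 0.01 and 1 to 2 with a replicate left out. Those called lower, 1 in the main setting, numbered 12 without the replicate block, 2 with arrayWeights, 0 without the trend, 0 at an adjusted p under 0.01 and 0 to 1 with a replicate left out. Over all 17561 genes, the fit without the trend called 4 higher and 2 lower, beside 297 and 88 in the main setting. The paired fit is the one reported, and the cause of these changes was not tested. Some settings use a smaller number of libraries or genes. Depth is unknown, and the precision is limited by 4 pairs.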

Other observations

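Several regulators had groups that did not overlap without passing the adjusted threshold, and the genes named here were chosen after their values were seen. HBEGF, the gene of a heparin-binding EGFR ligand, was higher in 4 of 4 pairs at 0.17 ± 0.07 (adjusted p = 0.160, limma). GRB7, whose gene lies next to ERBB2 on chromosome 17 (39737927 to 39747291) and whose protein binds phosphorylated ERBB receptors, was lower in 4 of 4 pairs at -0.21 ± 0.08 (adjusted p = 0.106, limma), while ERBB2 itself had 0.04 ± 0.20. Among docking genes, CRKL (-0.18 ± 0.03, adjusted p = 0.135, limma), FRS2 (-0.18 ± 0.07, adjusted p = 0.156, limma), PIK3CB (-0.10 ± 0.03, adjusted p = 0.400, limma) and PTPN11 (-0.07 ± 0.05, adjusted p = 0.585, limma) were lower in every pair. SOCS4, the close relative of SOCS5, had -0.21 ± 0.15 (adjusted p = 0.168, limma), and SOCS1 and SOCS3 each had -0.11 ± 0.06 (adjusted p (limma) of 0.206 and 0.231), all lower in 4 of 4 pairs. Groups that do not overlap were found for 24.0% of all genes, so that none of these values stands as a call.

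The widest pair-to-pair spread named among the inhibitors was that of PTPRK, a receptor-type phosphatase gene, with pair differences of -0.52, 0.29, 1.09 and -0.24 around 0.15 ± 0.71 (SD over 4 pairs; adjusted p = 0.798, limma). Amphiregulin, encoded by AREG at a level of 9.90, had -0.35 in pair 2 and 0.66 in pair 4, where 9 of 10 and 2 of 10 receptors were higher, respectively, and a log2 FC of 0.14 ± 0.42 (adjusted p = 0.687, limma).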
